A study of Mus musculus with 26 samples.

Results

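The genes described here are 10 that are commonly used to mark astrocytes and neural stem cells, namely Gfap, Aldh1l1, Vim, Nes, Glul, Fabp7, Aqp4, Clu, Apoe and S100b. They were chosen by name, and each was looked up by gene symbol in the tables of labelled RNA and of mRNA half-lives from oligodendrocyte progenitor cells (OPCs) and oligodendrocytes (OLs). Of the 10, 6 were listed for both cell types (Vim, Nes, Glul, Fabp7, Apoe and S100b) and 3 were listed for OLs alone (Gfap, Aldh1l1 and Clu), among 10104 transcripts listed for either. Aqp4 was looked up too and was not listed for either cell type. By the study's methods and the values, a transcript was listed for a cell type where it had at least 1 FPKM (sequenced fragments counted per kilobase of a transcript and relative to all mapped reads) in every 0 h library of that cell type and was above 0 in every 1 and 2 h library. The lists therefore do not give the OPC level of Gfap, Aldh1l1 or Clu, nor which of these conditions each missed.

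The OPCs were derived from 129S/SvEv mouse epiblast stem cells and were grown with bFGF and PDGFA, and the OLs were differentiated from them with noggin, IGF-1, cyclic AMP, NT3 and T3 (thyroid hormone). All cultures received 5-ethynyluridine (5-EU), a uridine analogue that lets new RNA be biotinylated and pulled down, for 24 h, and it was then replaced by uridine. Labelled RNA was sequenced at 0, 1, 2, 4 and 6 h of this chase in 3 OPC replicates and 2 OL replicates, 25 libraries in all. According to the study's methods these were biological replicates, and the OLs matched some of the OPC replicates. Its results describe OL cultures as mostly OLs with some cells that remained OPCs. The study also counted cells stained for the astrocyte marker GFAP after differentiation and probed Gfap mRNA by RT-PCR, and neither was used here. No use was made here of the OPC control without biotin, and RNA that reached the beads without a label stays in all values.

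Astrocytes are the glial cells that take up glutamate, carry lipids between brain cells and support synapses, and they share many transcripts with the radial glia and neural stem cells from which both astrocytes and oligodendrocytes arise. None of the genes above is exclusive to astrocytes. Vim, Nes and Fabp7 are used as markers of stem cells and radial glia, and Glul, Apoe and S100b are also made by cells of the oligodendrocyte lineage. In bulk libraries like these, fewer cells of a type and less RNA per cell cannot be told apart.

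The cell type labels were first compared with defining genes of the lineage at 0 h. Myelin genes separated the groups: Mbp was 2.49 ± 1.41 FPKM in OPCs (SD, n = 3) and 2254 ± 1356 FPKM in OLs (SD, n = 2), Cnp was 43.6 ± 7.35 and 1074 ± 460.3 FPKM, and Mog was listed for OLs alone. The transcription factors Olig1 and Olig2 were lower in OLs, by 0.88 (SE 0.23) and 0.67 (SE 0.18) on the log2 scale, while Sox10 was higher by 3.07 (SE 0.54). Of the receptors and proteoglycans that mark progenitors, Pdgfra was higher in OLs (17.1 ± 8.21 against 55.4 ± 16.3 FPKM) and so was Gpr17, a receptor of committed precursors (5.87 ± 0.809 against 311.4 ± 16.9 FPKM). The proteoglycans Cspg4 (45.1 ± 10.0 against 30.3 ± 0.599 FPKM) and Ptprz1 (174.8 ± 78.5 against 118.3 ± 12.9 FPKM) did not pass the test. None of the 8 microglia genes, 9 vascular and mesenchymal genes and 5 epiblast genes that were looked up had a row in the tables analysed here.

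At the start of the chase the 6 genes listed for both cell types went in opposite directions. Apoe and S100b had far more labelled RNA in OLs, Glul had somewhat more, and Vim and Nes had less. Apoe, S100b and Glul did not overlap between the groups and were higher in OLs (3 of 6, against 28.0% of 8177 transcripts), and Vim, Nes and Fabp7 did not overlap and were lower (3 of 6, against 31.4%). By limma's moderated test with Benjamini-Hochberg adjustment over 8177 transcripts, 3 passed as higher in OLs, where 14.1% of all transcripts did, and 2 passed as lower, where 17.5% did. The median log2 change of the 6 was 0.18, and that of all transcripts was -0.01.

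**Figure D1:**
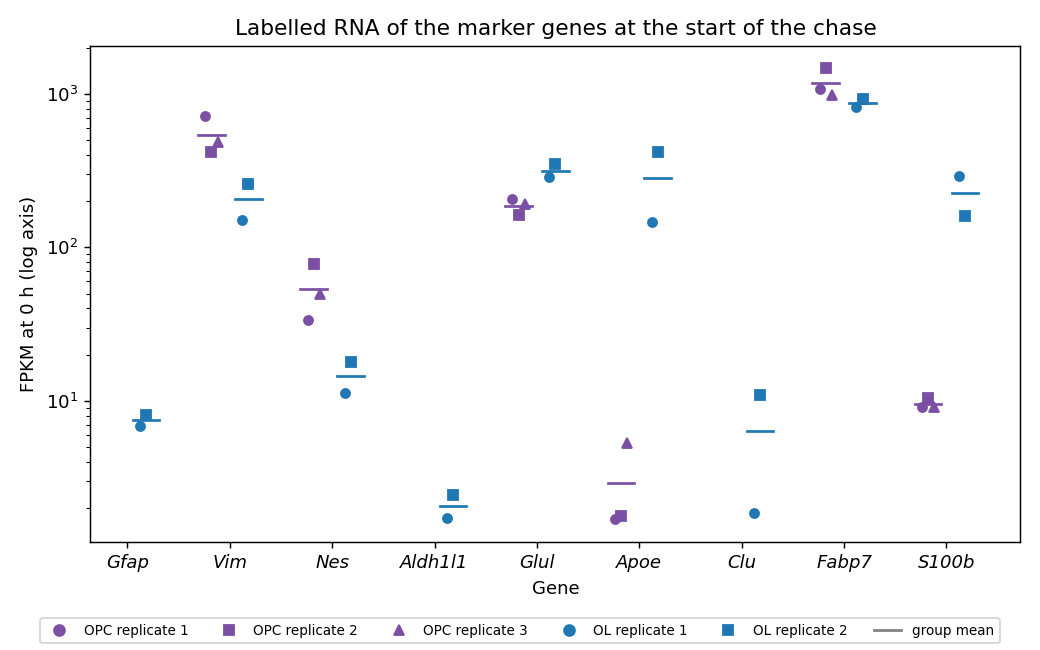
Labelled RNA of the 9 listed marker genes at 0 h in FPKM on a log axis, with 1 symbol per replicate and a bar at each group mean (OPC n = 3, purple, OL n = 2, blue). Apoe and S100b stand far higher in OLs, Vim and Nes lower, and Gfap, Aldh1l1 and Clu are drawn for OLs alone because they were not listed for OPCs.

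Of the intermediate filament genes, Vim and Nes had less labelled RNA in OLs and Gfap was listed for OLs alone. Vim encodes vimentin, the filament protein of immature glia, and its canonical transcript lies on chromosome 2 (GRCm38, 13573952 to 13582826, plus strand, 9 exons). Its 0 h level was 720.9, 416.1 and 487.1 FPKM in OPC replicates 1, 2 and 3, against 151.4 and 259.2 FPKM in OL replicates 1 and 2. Every OL value lay under every OPC value, and Vim was lower in OLs by a log2 change of -1.41 (SE 0.30, adjusted p = 0.00684). The call was lost under quantile normalization (-0.81, adjusted p = 0.0838). Without OL replicate 1, which leaves 1 OL culture and no OL spread, the log2 change was -1.02.

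Nes encodes nestin, a filament protein of neural stem cells, on chromosome 3 (87971093 to 87980451, plus strand, 4 exons). Its level was 33.8, 78.3 and 49.5 FPKM in the OPC replicates, against 11.3 and 17.9 FPKM in the OL replicates. The lowest OPC value was above the highest OL value, with a log2 change of -1.77 (SE 0.34, adjusted p = 0.00439). Without OL replicate 1, which leaves 1 OL culture and no OL spread, the log2 change was -1.45. Gfap, which encodes the filament protein of mature and reactive astrocytes (chromosome 11, 102887336 to 102897131, minus strand, 9 exons), was listed for OLs alone, at 6.86 and 8.12 FPKM. It was therefore present in both OL cultures at a level far under that of Vim on the same per-length scale, with 25.7% of transcripts lower in each replicate.

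Of the metabolic enzymes, Glul encodes glutamine synthetase, which makes glutamine from glutamate and ammonia (chromosome 1, 153899944 to 153909723, plus strand, 7 exons). Its level was 206.1, 163.3 and 192.4 FPKM in the OPC replicates, against 286.4 and 346.9 FPKM in the OL replicates. Glul was higher in OLs in every replicate, by 0.75 on the log2 scale (SE 0.19, adjusted p = 0.0161), and the call was lost without OPC replicate 3 (0.78, adjusted p = 0.0822). Without OL replicate 2, which leaves 1 OL culture and no OL spread, the log2 change was 0.62. Up to 116 of its exonic bases are shared with annotated genes, Teddm2 on the opposite strand and Mir8114 on the same strand, so reads there are uncertain. Aldh1l1, the folate enzyme most used as a pan-astrocyte marker (chromosome 6, 90550805 to 90599169, plus strand, 23 exons), was listed for OLs alone at 1.72 and 2.44 FPKM, close to the listing minimum, and shares 106 exonic bases with Gm15756 on the opposite strand.

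Among the lipid carriers, Apoe had the largest change of the 6 genes. It encodes apolipoprotein E, the main lipoprotein component secreted by astrocytes (chromosome 7, 19696272 to 19699052, minus strand, 4 exons). Its level was 1.69, 1.78 and 5.28 FPKM in the OPC replicates, against 146.5 and 416.2 FPKM in the OL replicates. The ratio of the group means was 96.4, and the log2 change was 6.10 (SE 0.48, adjusted p = 4.49e-05), which stayed past the threshold in all 11 alternatives. Clu, which encodes clusterin, another secreted apolipoprotein (chromosome 14, 65968483 to 65981547, plus strand, 9 exons), was listed for OLs alone and differed between the cultures, with 1.86 FPKM in replicate 1 and 10.9 FPKM in replicate 2.

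Fabp7 encodes the brain fatty acid-binding protein of radial glia (chromosome 10, 57784881 to 57788450, plus strand, 4 exons), and it had the highest level of the 9 genes in both cell types. It was at 1071, 1465 and 983.2 FPKM in the OPC replicates, against 817.0 and 932.8 FPKM in the OL replicates, and at least 99.5% of transcripts in each 0 h library lay below it. The groups did not overlap, but the log2 change of -0.40 (SE 0.26) missed the threshold (adjusted p = 0.269), and under quantile normalization it turned to 0.64 (adjusted p = 0.0364). Its direction between the cell types thus depended on the scaling.

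S100b encodes a calcium-binding protein of astrocytes and of maturing oligodendrocytes (chromosome 10, 76253853 to 76261159, plus strand, 3 exons). It was at 9.07, 10.5 and 9.11 FPKM in the OPC replicates, the narrowest spread of the 6 genes, and at 290.0 and 160.3 FPKM in the OL replicates. The ratio of the means was 23.6 and the log2 change was 4.36 (SE 0.26, adjusted p = 1.78e-05), past the threshold in all 11 alternatives.

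The order of the mean levels differed between the cell types. In OPCs it ran from Fabp7 (1173 ± 256.7 FPKM, SD, n = 3) through Vim (541.4 ± 159.4), Glul (187.3 ± 21.8), Nes (53.9 ± 22.5) and S100b (9.54 ± 0.792) to Apoe (2.92 ± 2.05), and the replicate ranges of neighbours in this order did not overlap. In OLs Fabp7 was again highest (874.9 ± 81.9 FPKM, SD, n = 2), and Glul (316.6 ± 42.8), Apoe (281.3 ± 190.7), S100b (225.1 ± 91.8) and Vim (205.3 ± 76.2) followed with overlapping replicate ranges. Nes (14.6 ± 4.70), Gfap (7.49 ± 0.894), Clu (6.39 ± 6.41) and Aldh1l1 (2.08 ± 0.505) were lowest in OLs, and the range of Clu overlapped those of Gfap and Aldh1l1.

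The promoters of the genes with the clearest changes are shown to set the 2 that were higher in OLs beside the 2 that were lower. Each window spans a RefSeq transcription start (GRCm38.p6), most of it upstream, is read 5′ to 3′ on the gene's strand, and was found for 8 of the 9 listed genes. Capitals mark matches to 5 textbook motifs on either strand, and a match on the other strand appears as its reverse complement. The letters searched were TATAAA for the TATA box and GGGCGG for the GC box. They were CCAAT for the CCAAT box, CAGCTG for an E-box (16.3% of windows, in none of the 4 shown) and ACAAAG for the core of SOX sites. The Apoe window is chr7:19699139-19699438 on the minus strand, S100b is chr10:76253586-76253885, Vim is chr2:13574061-13574360 and Nes is chr3:87970843-87971142, all 3 on the plus strand.
Apoe: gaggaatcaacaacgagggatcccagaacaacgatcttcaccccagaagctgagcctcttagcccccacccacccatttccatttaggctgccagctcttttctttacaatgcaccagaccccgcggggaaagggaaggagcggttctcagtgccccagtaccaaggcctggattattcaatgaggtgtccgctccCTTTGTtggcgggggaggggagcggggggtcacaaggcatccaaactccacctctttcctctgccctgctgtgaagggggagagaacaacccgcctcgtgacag
S100b: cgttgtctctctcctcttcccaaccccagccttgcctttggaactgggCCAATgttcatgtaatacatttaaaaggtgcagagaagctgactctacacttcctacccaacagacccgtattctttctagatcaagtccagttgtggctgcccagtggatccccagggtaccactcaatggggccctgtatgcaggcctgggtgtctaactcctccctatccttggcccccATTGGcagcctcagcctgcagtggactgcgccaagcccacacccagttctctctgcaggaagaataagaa
Vim: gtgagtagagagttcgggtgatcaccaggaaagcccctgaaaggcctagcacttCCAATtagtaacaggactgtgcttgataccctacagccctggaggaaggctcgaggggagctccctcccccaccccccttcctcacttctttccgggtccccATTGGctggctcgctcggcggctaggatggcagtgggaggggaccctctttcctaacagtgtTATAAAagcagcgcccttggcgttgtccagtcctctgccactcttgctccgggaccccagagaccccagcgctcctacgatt
Nes: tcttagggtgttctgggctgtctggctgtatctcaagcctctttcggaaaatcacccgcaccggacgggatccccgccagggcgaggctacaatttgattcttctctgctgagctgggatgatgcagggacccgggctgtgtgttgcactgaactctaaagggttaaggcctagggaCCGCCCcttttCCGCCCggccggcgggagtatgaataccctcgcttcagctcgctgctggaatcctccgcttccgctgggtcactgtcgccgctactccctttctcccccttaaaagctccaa
No motif was shared by all 4 windows. Vim held a TATAAA, which 13.6% of 32817 promoter windows of this length hold, and Nes held 2 GC boxes on the other strand (35.6% of windows hold at least 1). The Vim and S100b windows each held 2 CCAAT matches (37.4% of windows hold at least 1), and the Apoe window held a single ACAAAG match on the other strand (18.7% of windows). The RefSeq start lay 359 bases from the start of the quantified Vim transcript and 136 bases from that of Apoe, and 17 and 0 bases from those of S100b and Nes. These matches describe letters in the windows and not binding.

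Other genes of the same groups were looked up from lists, to see whether the 10 genes moved with them. Of 25 other astrocyte genes, 21 were listed for both cell types, and 6 passed as higher and 5 as lower in OLs, with a median log2 change of 0.47. The counts of this and the following lists stand beside 14.1% of all transcripts higher and 17.5% lower. Those with the largest rises were Mt1, a metallothionein (82.3 ± 64.4 to 1128 ± 1102 FPKM, log2 change 3.57, SE 0.70), S1pr1, a sphingosine phosphate receptor (3.21, SE 0.43), Slc1a2, a glutamate transporter (1.60, SE 0.24), and Atp1b2, a sodium pump subunit (1.35, SE 0.37). Cd44 (-1.88, SE 0.37), Mlc1 (-1.13, SE 0.34) and the glial transcription factors Nfib (-1.10, SE 0.29) and Nfia (-1.06, SE 0.35) were lower in OLs.

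Of 15 other neural stem genes, 11 were tested, and 1 was higher and 2 were lower in OLs, shares of about the size of those over all transcripts. Sox2, a transcription factor of stem cells, was higher (1.40, SE 0.22), while Lfng, a modifier of Notch receptors (-2.38, SE 0.23), was lower. The median log2 change of these 11 was -0.31, beside -0.01 over all transcripts.

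Of the other intermediate filament, linker and lamin genes, 7 of 14 were tested, and 2 rose and 2 fell, with a median of 0.40. The linkers Plec (1.71, SE 0.31) and Dst (1.46, SE 0.40), which tie filaments to membranes, were higher in OLs, and the nuclear lamins Lmnb1 (-2.09, SE 0.24) and Lmnb2 (-1.56, SE 0.23) were lower. Of 8 tested lipoprotein and fatty acid carrier genes, the lipid exporter Abca1 (2.89, SE 0.42) and the receptor Vldlr (2.87, SE 0.34) were higher in OLs, as Apoe was, whereas the receptor Scarb1 (-2.31, SE 0.24) was lower. The fatty acid-binding protein Fabp5, a relative of Fabp7, was at 156.0 and 151.0 FPKM in OPCs and OLs and did not pass the test.

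Of 15 tested glutamate, glutamine and one-carbon genes, 2 were higher and 7 lower in OLs, with a median of -0.44. Glud1, the glutamate dehydrogenase, was higher (0.94, SE 0.21), as was the mitochondrial folate enzyme Aldh1l2 (1.05, SE 0.32), a relative of Aldh1l1. The serine and folate enzymes Shmt1 (-3.26, SE 0.27), Shmt2 (-1.98, SE 0.24), Mthfd2 (-1.75, SE 0.24) and Mthfd1l (-1.44, SE 0.27) were lower.

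**Figure D2:**
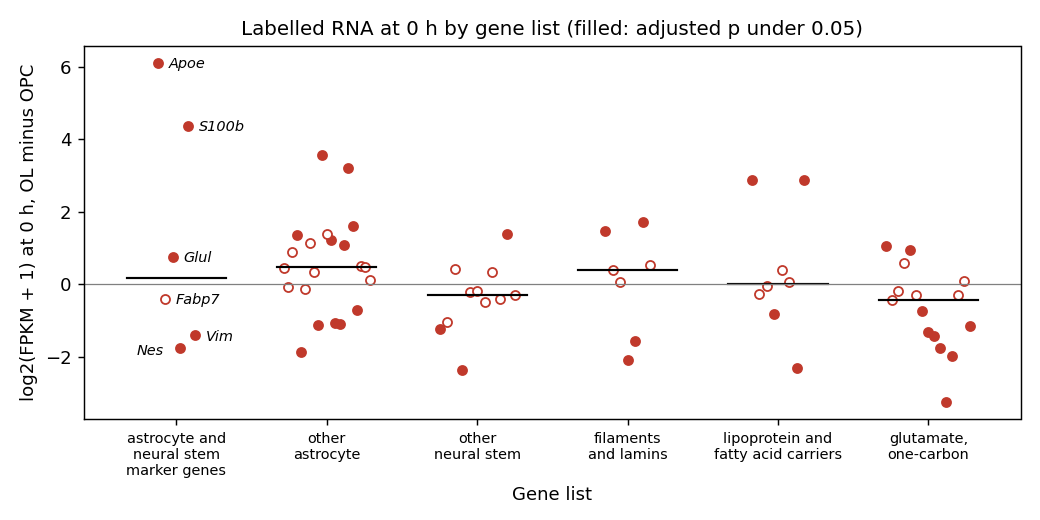
Change of labelled RNA at 0 h, as the difference of log2(FPKM + 1) between OLs and OPCs, for the 6 marker genes listed for both cell types and for 5 lists of related genes, with filled symbols past an adjusted p of 0.05 and a bar at each list's median. Apoe (6.10) and S100b (4.36) lie above every gene of the other lists, whose medians run from -0.44 to 0.47.

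The 2 OL cultures differed from each other in these genes. At 0 h, 8 of the 9 marker genes were higher in OL replicate 2 than in OL replicate 1, as were 57.0% of all 9751 OL transcripts. The ratio of replicate 2 to replicate 1 was 5.88 for Clu, 2.84 for Apoe, 1.71 for Vim and 1.59 for Nes, and between 1.14 and 1.42 for Fabp7, Gfap, Glul and Aldh1l1. S100b was the exception, with a ratio of 0.553, and it was lower in replicate 2 at 0, 2, 4 and 6 h.

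Lists of other genes separated the cultures too. Of the 22 other astrocyte genes listed for OLs, 21 were higher in replicate 2, and their summed level was 1979 FPKM in replicate 1 and 6173 FPKM in replicate 2. Much of this gap lay in the metallothioneins Mt1, Mt2 and Mt3 (915.1 and 4217 FPKM together), and the other 19 genes summed to 1064 and 1956 FPKM. All 10 listed oligodendrocyte genes were lower in replicate 2, with summed levels of 6443 and 2983 FPKM, and Mbp was at 3213 and 1295 FPKM. Of the other neural stem genes 9 of 11 were higher in replicate 2, of the progenitor genes 1 of 7 and of the neuron genes 0 of 4. Apoe, Vim, Nes and Fabp7 were higher in replicate 2 at all 5 time points, while Clu was higher at 4, Gfap and Glul at 3 and Aldh1l1 at 1. This is a description of 1 culture against another, with no replicate of the difference. The part of culture composition in the marker levels was not tested. The log2 change of Apoe from OPCs was 5.35 without replicate 2, which leaves 1 OL culture.

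**Figure D3:**
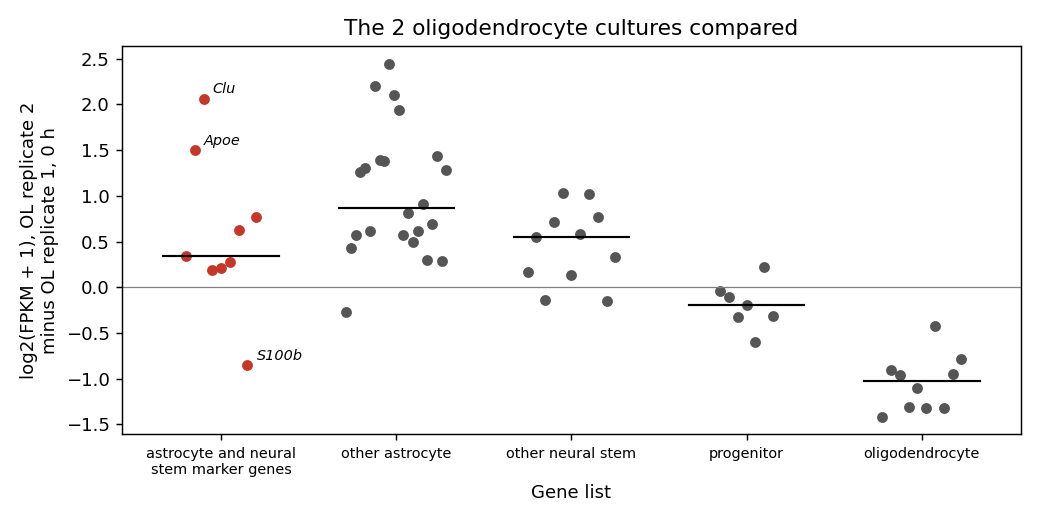
Difference of log2(FPKM + 1) at 0 h between OL replicate 2 and OL replicate 1 for genes of 5 lists, with 1 symbol per gene and a bar at each list's median. The marker genes other than S100b lie above 0 with most other astrocyte and neural stem genes, and S100b lies below 0 with all 10 oligodendrocyte genes.

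The second question was how long labelled RNA of these genes lasted. The deposited half-lives were fitted to each replicate by the authors, who set longer estimates to 6 h or more, since the chase ended at 6 h. Any value above 6 h was set to 6 h here. Of the 5 genes with a half-life in OPCs (Vim, Nes, Glul, Fabp7 and S100b), all 5 were at this 6 h limit in all 3 OPC replicates, against 17.4% of 8491 transcripts. Of the 7 with a half-life in OLs (the same 5, Apoe and Gfap), all 7 were at the limit in both OL replicates, against 28.9% of 9698 transcripts. In all 5 replicates together, 5 of 5 genes and 16.1% of 8112 transcripts were at the limit.

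The limit sets the half-life difference between the cell types to 0 for the 5 genes compared, so none was called (0 of 5; over all 8112 transcripts compared, 3.39% were longer and 0.148% shorter in OLs by limma), and a difference above 6 h cannot be read from these values. Apoe had no half-life in OPCs, and Clu and Aldh1l1 had none in OLs, so 1 of 6 and 2 of 9 listed genes lacked one, beside 0.457% of 8530 listed transcripts in OPCs and 0.544% of 9751 in OLs. In a refit, the absolute residuals of each of these 3 genes exceeded 500% of the 0 h level in at least 1 replicate, as they did for all 39 OPC and 53 OL transcripts without a half-life. They summed to 583.9, 722.6 and 204.9% for Apoe in the OPC replicates, 1693 and 254.3% for Clu and 700.6 and 136.3% for Aldh1l1 in the OL replicates.

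Levels relative to 0 h therefore say more than the half-lives. The median transcript had 14.4, 10.98 and 17.7% of its 0 h level left at 6 h in the OPC cultures, whereas 31.5 and 36.6% remained in the OL cultures. Later time points were scaled by the authors to a 5-EU-labelled spike-in, and all transcripts of a library carry the same factor. Slopes were fitted to log2(FPKM + 1) against hours of chase with limma, with the replicate as a block, and the median slope was -0.38 per h in OPCs and -0.20 per h in OLs. Each library counted as 1 observation around a slope shared by the replicates of a cell type. The SE and p of a slope or slope difference therefore do not measure the spread of slopes between cultures. In OPCs 2 of the 6 genes rose (5.06% of all transcripts did) and 1 fell (81.9% did). In OLs 4 of the 9 genes rose (1.98% did) and 0 fell (68.9% did, and Nes had the only slope below 0), and all 15 of these slopes were above the median of their cell type.

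Apoe rose in both cell types. In OPCs it stood at 330.7, 434.5 and 182.4% of its own 0 h level at 6 h, with a slope of 0.22 log2 units per h (SE 0.062, adjusted p = 0.00193), and in OLs at 267.1 and 134.6% with a slope of 0.19 (SE 0.052, adjusted p = 0.00445). All 5 replicates ended above their start. In OPCs Apoe and Fabp7 did so in every replicate (2 of 6, against 4.41% of transcripts), and in OLs Gfap, Clu, Vim, Apoe and S100b did (5 of 9, against 5.18%). The OPC rise began from levels of 1.69 to 5.28 FPKM and reached 5.60 to 9.63 FPKM, whereas OL replicate 1 went from 146.5 to 391.3 FPKM and OL replicate 2 from 416.2 to 560.1 FPKM. Without OL replicate 1 the OL slope rested on 1 culture and was 0.079.

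The other lipid carriers passed as rising too, Clu in OLs, the cell type it was listed for, and Fabp7 in OPCs. Clu reached 622.3 and 214.1% of its 0 h level in the OL replicates, with a slope of 0.29 (SE 0.070, adjusted p = 0.00136). Without replicate 1 the slope rested on 1 culture and was 0.20. Fabp7 reached 113.8, 163.7 and 132.3% in the OPC replicates, with a slope of 0.099 (SE 0.027, adjusted p = 0.00152), which missed the threshold without the 6 h libraries (adjusted p = 0.0702). In OLs Fabp7 ended at 99.3 and 186.3%, and its slope of 0.069 (SE 0.055) did not pass (adjusted p = 0.265). The difference of its slopes between the cell types was -0.030 (SE 0.051, adjusted p = 0.678), and did not pass, whereas with every time point set to the 0 h median it was -0.29 (adjusted p = 0.00112).

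Of the filament genes, Gfap and Vim rose in OLs. Gfap stood at 291.7 and 241.3% at 6 h, going from 6.86 to 20.0 FPKM in replicate 1 and from 8.12 to 19.6 FPKM in replicate 2, and its slope of 0.24 (SE 0.053, adjusted p = 0.000821) kept its call in all 8 alternatives. Vim stood at 176.8 and 173.4% at 6 h in OLs, with a slope of 0.18 (SE 0.047, adjusted p = 0.00330) that missed the threshold without the 6 h libraries (adjusted p = 0.107). In OPCs Vim ended at 69.7, 124.1 and 115.0%, on both sides of its start, with a slope of 0.029 (SE 0.028, adjusted p = 0.332).

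Vim was the gene of the 6 whose slopes differed between the cell types. The OL slope was higher by 0.15 log2 units per h (SE 0.052, adjusted p = 0.0336), where 31.5% of 8177 transcripts had a higher slope in OLs and the median difference was 0.14. On a scale on which every time point had the median of its own 0 h library, the difference was -0.12 and missed the threshold (adjusted p = 0.109), while Apoe (-0.27, adjusted p = 0.0212), Nes (-0.29, adjusted p = 9.06e-05) and Fabp7 passed with a lower slope in OLs (3 of 6). On that scale 24.0% of all transcripts passed as lower in OLs and 10.2% as higher, and the median difference was -0.029. With a replicate left out the difference for Vim stayed between 0.12 and 0.17, but its call was lost without OPC replicate 1 (adjusted p = 0.0930) and OPC replicate 2 (adjusted p = 0.0892). With either OL replicate left out, 1 OL culture remained. Without the 6 h libraries the difference was 0.093 (adjusted p = 0.505). Nes did not pass in either cell type and ended at 96.6, 55.5 and 117.8% in the OPC replicates, against 54.4 and 83.5% in the OL replicates.

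Glul was the gene that fell. It ended at 44.8, 53.5 and 66.8% of its 0 h level in the OPC replicates, with values of 75.6 to 113.4% at the earlier times, and its slope was -0.11 (SE 0.035, adjusted p = 0.00479). The fall rested on the 6 h libraries, since without them the slope was 0.010 (adjusted p = 0.843), and it missed the threshold without OPC replicate 2 (adjusted p = 0.0539). In OLs Glul ended at 91.4 and 93.5%, with a slope of 0.012 (SE 0.046, adjusted p = 0.816), and the difference of slopes was 0.13 (SE 0.056, adjusted p = 0.0809).

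S100b did not pass in either cell type. It ended at 73.2, 55.0 and 126.1% in the OPC replicates, starting from about 10 FPKM, and at 105.5 and 124.0% in the OL replicates, with slopes of -0.042 (SE 0.054) and 0.049 (SE 0.044). Aldh1l1 went opposite ways in the OL cultures, to 322.7% in replicate 1 and 30.1% in replicate 2, at levels of 0.455 to 6.05 FPKM, and its slope of 0.086 (SE 0.078) did not pass (adjusted p = 0.337).

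**Figure D4:**
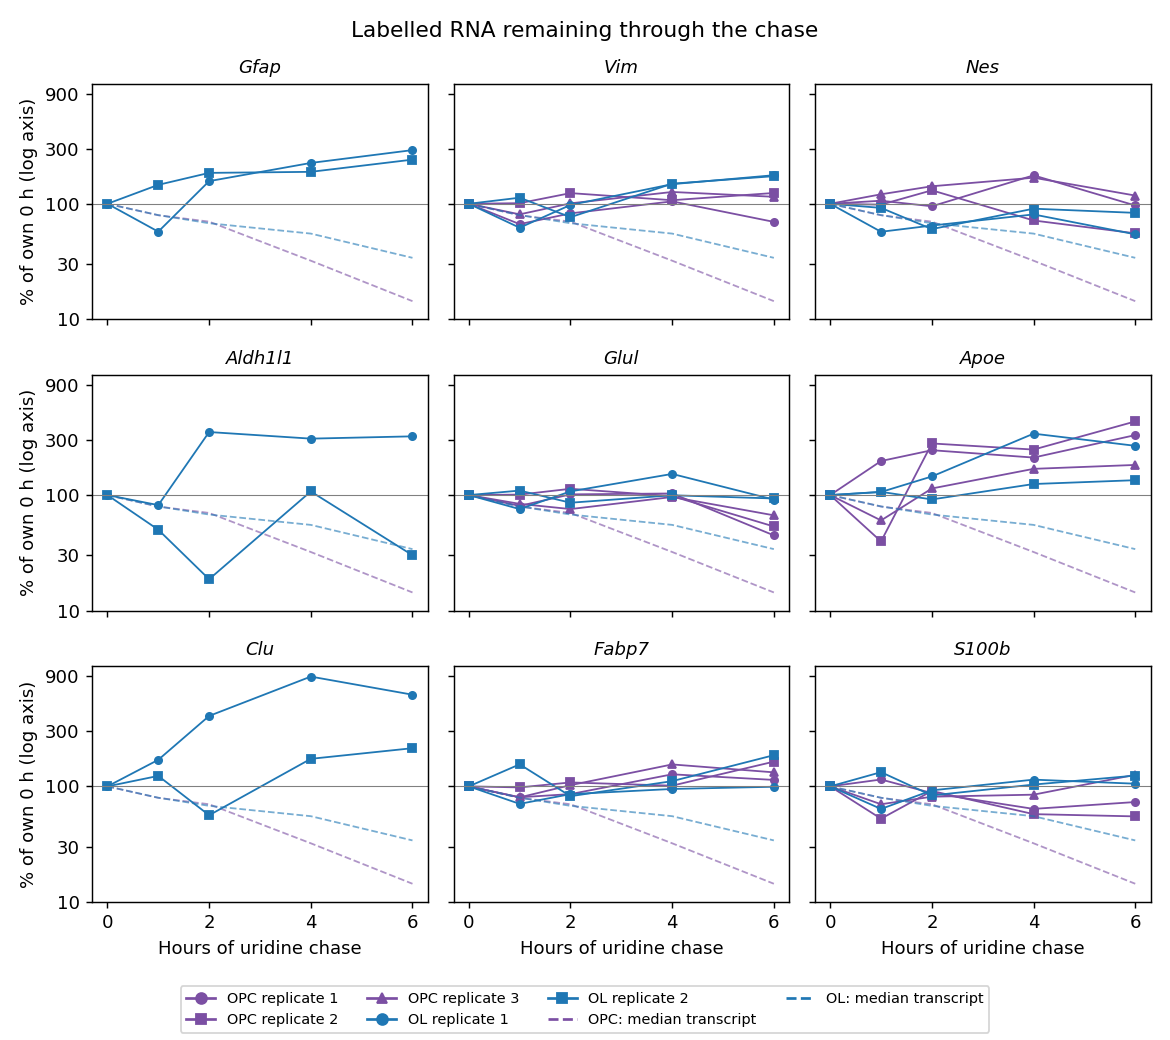
Labelled RNA of each of the 9 listed genes at 0, 1, 2, 4 and 6 h of chase as a percentage of the same replicate's 0 h level on a log axis, with 1 line per replicate and dashed lines for the median transcript averaged over the replicates of each cell type. Apoe, Clu and Gfap end above 100% in every replicate shown, and Glul in OPCs ends at 44.8 to 66.8%, still above the median OPC transcript.

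With every time point set to the 0 h median of its library, which removes the shared fall, all 6 OPC slopes and all 9 OL slopes were positive and past the threshold, where 33.9% of OPC transcripts and 30.9% of OL transcripts were. The split of all calls then became 2894 rises and 2146 falls in OPCs, from 432 and 6989, and 3015 rises and 1879 falls in OLs, from 193 and 6716. On that scale the slopes ran from 0.40 (Glul) to 0.71 (Apoe) in OPCs and from 0.20 (Nes) to 0.55 (Clu) in OLs. The direction of Glul, Nes and S100b in OPCs and of Nes in OLs thus depended on the scale, and that of Apoe, Fabp7, Vim, Gfap and Clu did not. The part of unlabelled RNA on the beads in these courses was not tested.

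**Figure D5:**
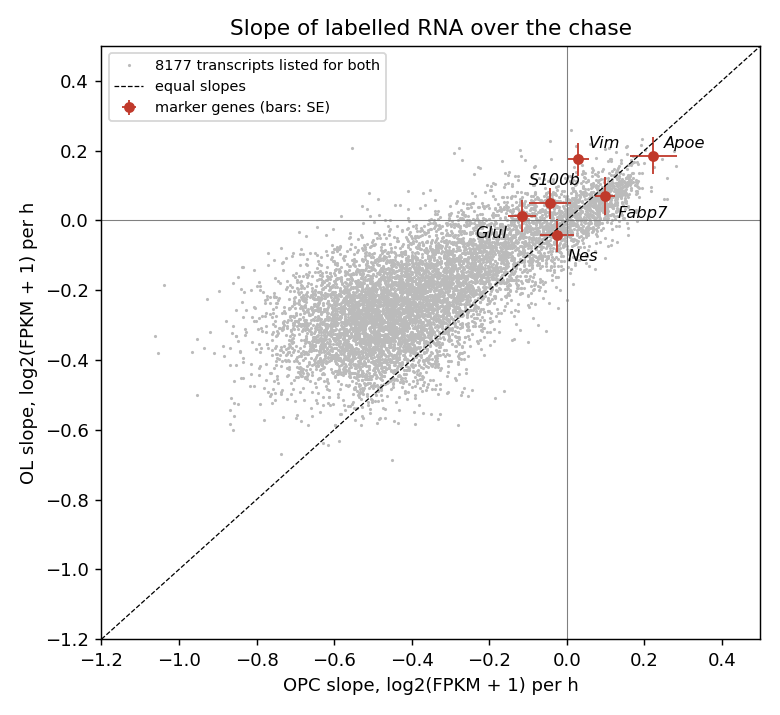
Slope of log2(FPKM + 1) per hour of chase in OLs against OPCs for the 8177 transcripts listed for both cell types (grey), with the 6 marker genes and their standard errors (red). The marker genes lie at the upper right, between -0.11 and 0.22 per h in OPCs and -0.043 and 0.19 per h in OLs, where the median transcript is at -0.38 and -0.20, and Vim lies farthest above the line of equal slopes.

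The related lists did not all behave like the marker genes. Of the other astrocyte genes, 4 of 21 rose and 10 fell in OPCs, and 9 of 22 rose and 6 fell in OLs, with median slopes of -0.036 and 0.092. Over all transcripts 5.06% rose and 81.9% fell in OPCs, and 1.98% rose and 68.9% fell in OLs. Of 11 other neural stem genes, 0 rose and 10 fell in each cell type, with median slopes of -0.46 and -0.27. In OLs 17 of the 22 other astrocyte genes but 1 of the 11 other neural stem genes had a half-life at the 6 h limit in both replicates, against 28.9% of all transcripts. Fgfr3, a growth factor receptor, and Plpp3, a lipid phosphatase, were the other astrocyte genes called with a longer half-life in OLs, at 6.00 and 6.00 h against 1.41 to 1.96 h in OPCs for Fgfr3 and at 4.91 and 6.00 h against 1.62 to 2.11 h for Plpp3. Among the filament and lamin genes Lmna was called longer (6.00 and 6.00 h in OLs, 1.58 to 1.96 h in OPCs) and Lmnb1 shorter (3.91 and 3.64 h in OLs, 5.72 to 6.00 h in OPCs). Values of 6 h are the limit, so these differences are lower bounds and their spread is understated. The 3 calls of longer half-lives were lost when each replicate was centred on its median, which left 1 call over all transcripts, a shorter one, and no call passed with the replicate number as a block.

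The pattern of a gene across all libraries was compared by Pearson's r over the 25 libraries, on log2(FPKM + 1) with each library's median subtracted. The libraries of a replicate share a culture, so r is a description. For Fabp7, the gene of the 10 with the highest mean level, the most similar of 8176 other transcripts were Selenop (r = 0.98), Rpl5 (r = 0.97) and Gpm6b (r = 0.97). For Apoe, the gene with the largest change, they were S100b (r = 0.97), Tubb4a (r = 0.96) and Cnp (r = 0.96). S100b is thus the transcript whose pattern lay nearest to that of Apoe, although the 2 went opposite ways between the OL cultures at 0 h. Apoe was picked for its change between the cell types, and S100b (4.36), Tubb4a (5.57) and Cnp (4.54) were also higher in OLs at 0 h. The r for Apoe therefore includes this shared step. Subtracting library medians that fall through the chase also gives a shared course to transcripts that fall less, such as Fabp7.

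Beyond their levels, the 9 genes were compared in sequence features that the choice by name did not use, with coding sequences and 3′ UTRs from GENCODE vM21. The study concerns the tRNAs that read phenylalanine and lysine codons in these cells, so the shares of UUU (phenylalanine) and AAA (lysine) were taken. AAA made up 12.5 to 35.1% of the lysine codons of the 9 genes, under the median of 37.5% over 10089 transcripts in 9 of 9, and was lowest in S100b (1 of 8 codons) and Clu (4 of 29). UUU made up 14.3 to 60.7% of phenylalanine codons, under the median of 44.4% in 5 of 9, and was lowest in S100b and Apoe and highest in Nes and Glul.

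The share of G or C at the third position of codons was above the median of 60.6% in 7 of 9, the exceptions being Nes (55.7%) and Fabp7 (51.5%). The 3′ UTRs were under the median length of 1096 bases in 7 of 9, from 108 bases in Apoe to 1541 bases in Glul, and 5 of 9 held no ATTTA, the core of AU-rich decay elements, where 30.9% of transcripts held none. Since all half-lives of the genes were at the limit of the chase, no relation between these features and half-life could be read within the group.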

How the data were processed

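Labelled RNA was measured in 25 libraries, 15 from OPCs and 10 from OLs, grouped by the cell type, replicate and hour in their labels. The authors aligned reads to GRCm38 with HISAT2 2.1.0 and tabulated FPKM per canonical coding transcript of GENCODE vM9 with StringTie 1.3.5, and the deposited FPKM of later time points are scaled to 5-EU-labelled spike-ins. The 0 h columns carry 6 decimals and the later values at most 6 significant digits, so 0 h was read as FPKM within a library. The deposited half-lives, another unit in hours, were fitted by the authors by least absolute deviations, with longer estimates set to 6 h or more. Any value above 6 h was set to 6 h here before testing.

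Levels at 0 h, log2 half-lives and slopes were tested with limma 3.58.1 in R 4.3.3 on log2(FPKM + 1) (half-lives on log2 hours), with Benjamini-Hochberg adjustment over all transcripts and a threshold of 0.05. A fold on this scale understates the change of low genes. Slopes carried the replicate as a block, and levels and half-lives did not, because the labels do not say which OL replicate matches which OPC replicate. The fits and refits were tested on simulated data. The simulated noise was independent between libraries and of limited spread, with no 6 h limit and no culture effect. The simulations therefore do not show how reliable the calls made here are. Read counts are not recoverable from these values, so depth is unknown and no counting interval is given. The number of replicates (3 and 2) limits the precision. Besides the 10 genes, the text names, per list and comparison between cell types, up to 4 transcripts past the threshold in each direction by size of change, with lineage genes as a label check and the 3 nearest patterns of 2 genes. Genes, lists and tests were chosen with earlier results of these data known, and the slope difference was added after seeing that half-lives lay at the limit. Promoters were RefSeq windows. Some genes of the lists are counted but not reported here by name. Alternatives were other scalings, pseudocounts, filters, time points and leaving out each replicate. Leaving out an OL replicate leaves 1 OL culture. Such a fit holds no spread between OL cultures, so a call kept or lost in it carries little weight.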

Additional observations from a re-analysis of the deposited data

Results flagged for a closer look

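The slope of labelled Vim RNA over the chase differed between the cell types by an interaction test across all transcripts (limma). It was 0.18 log2 units per h in OLs and 0.029 in OPCs, a difference of 0.15 (SE 0.052, adjusted p = 0.0336), and Vim rose in 2 of 2 OL replicates and in 2 of 3 OPC replicates by 6 h. The SE and p treat the libraries of a culture as separate observations and do not measure the spread between cultures. Fitted alone, the replicates had slopes of -0.025, 0.043 and 0.071 in OPCs and 0.20 and 0.15 in OLs. The median transcript differed by 0.14 in the same direction. Of 9 alternatives, 3 kept its direction and call, 5 lost the call and 1 changed its sign. Groups of 3 and 2 replicates are too small to look for single outlying samples.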

How the results depend on the processing

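Of 244 values of single genes under an alternative, half-lives left out because the 6 h limit fixes them, 199 kept their direction and call, 15 lost the call, 9 gained it and 21 changed sign, and the cause of these changes was not tested. Apoe and S100b at 0 h kept theirs throughout. The count of transcripts called at 0 h (2586) ran from 1183 to 2912 when replicates were left out in turn, and was 2253 with the replicate number as a block, a pairing that the labels do not support and that leaves 1 residual degree of freedom. The half-life count (287, of which 275 longer and 12 shorter in OLs) split into 85 longer and 195 shorter when rescaled to 1 mean decay curve for all replicates, and was 1 when each replicate was centred on its median, 564 without the 1 h libraries, 23 without the 6 h libraries, 2609 when slopes were compared instead, 0 by limma with the replicate block (1554 at an unadjusted p under 0.05), and 167 to 236 with a replicate left out. The slope difference count (2609, added after seeing the data) was 1466 without the 1 h libraries, 1610 without the 6 h libraries and 765 to 2668 with a replicate left out, and 3038 with a pseudocount of 0.1. Its split of 2576 higher and 33 lower in OLs turned to 830 higher and 1963 lower with each time point set to the 0 h median.

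With each time point set to the 0 h median, the sign changed for Glul (0.40), Nes (0.49) and S100b (0.44) in OPCs, for Nes (0.20) in OLs, and for the slope differences of Glul (-0.13), S100b (-0.14) and Vim (-0.12). Without the 6 h libraries it changed for Glul (0.010) and Nes (0.090) in OPCs, Fabp7 in OLs (-0.0030) and the slope difference of Apoe (0.023). Fabp7 at 0 h turned to 0.64 under quantile normalization. With a replicate left out, slopes ran from -0.065 to 0.24 for Aldh1l1 and -0.018 to 0.043 for Glul in OLs and from -0.061 to 0.042 for Nes in OPCs, and slope differences from -0.15 to 0.069 for Apoe, -0.065 to 0.0047 for Fabp7 and -0.085 to 0.018 for Nes.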
